A study of Mus musculus with 2 samples.

Results

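Oxidative phosphorylation (OXPHOS) genes were taken as the rows whose symbol starts with Nduf, with Sdh followed by a, b, c or d, with Uqcr, Cox4 to Cox8 or Atp5, or with mt- for the protein-coding genes of the mitochondrial genome. This named 111 of the 32285 rows of the count tables. Of these, 98 were nuclear and 13 were mitochondrially encoded. The nuclear members comprised 39 genes with symbols of complex I, 4 of complex II, 8 of complex III, 18 of complex IV, 17 of complex V and 12 assembly factors. The mitochondrially encoded members (called mt- members) comprised 7 genes of complex I, 1 of complex III, 3 of complex IV and 2 of complex V. All 13 mt- members and 95 nuclear members had a UMI in all 4 tables, whereas Cox7b2 and Cox8b had 0 UMIs throughout and Cox8c had 1 UMI in 1 table.

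The study compared C57BL/6 mice with the wild type Ptpn22 gene (PEP-WT) and mice that carry an altered, autoimmunity-linked Ptpn22 allele on both chromosomes, made with CRISPR/Cas9 (PEP-619WW). Both genotypes carried an infection with LCMV-cl13, the chronic strain of a mouse arenavirus (lymphocytic choriomeningitis virus), and were analysed at day 8. Cells of 4 to 5 mice were pooled per genotype before live CD45+ cells were sorted and run on a droplet assay that counts transcripts near their 3′ end with unique molecular identifiers (UMIs). Mice were matched for age and sex, the study's methods give an age range in weeks for its animals as a whole but no age for these samples, and counts of Ptpn22 transcripts cannot show the altered base, so the genotype labels had no check in the data.

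Each genotype had 2 count tables, called run 1 and run 2 here, and each table was 1 library. The barcode number and the median number of genes per barcode of both run 2 tables are those that the study's methods give for its libraries. No source used here describes the run 1 tables or says how the runs are related, so the runs were not treated as replicates. Run 1 held 14821 PEP-WT and 8576 PEP-619WW barcodes with medians of 2832 and 3293 UMIs. Run 2 held 9539 and 11029 barcodes with medians of 4837 and 3611 UMIs. The 6 pairs of tables shared 19 to 49 barcode strings. With 1 library per genotype and run there was no replicate error and no test, and every interval is a 95% interval for counting error only.

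The tissue labels were contradictory and the tables did not look alike. The labels name liver, a human T cell line and tumor infiltrating cells, while the protocol and the study's text describe splenocytes. The hepatocyte genes Alb, Apoa1 and Ttr summed to at most 0.0284 UMIs per 1000000 in any table. The 6 melanocyte genes examined (Dct, Mlana, Pmel, Slc45a2, Tyr, Tyrp1) summed to 0.590 and 0.723 in run 1, but to 284 in PEP-WT and 16.1 in PEP-619WW in run 2. Run 2 of PEP-WT also held only 28 CD8 T and 12 CD4 T barcodes. Run 1, whose origin is not described, therefore supplied all comparisons of T and B cells, and genotype ratios from run 2 are given separately.

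The barcodes were sorted into 6 gates, formed from few genes. CD8 T barcodes had a UMI of Cd3e and Cd8b1, CD4 T barcodes of Cd3e and Cd4, and B barcodes of Cd79a and Ms4a1. Plasma barcodes had at least 5 UMIs of Mzb1, Lyz2 barcodes at least 5 of Lyz2, and neutrophil barcodes at least 20 of S100a8 and S100a9 together. In run 1 these held 1439, 361, 6937, 2361, 1600 and 806 PEP-WT barcodes and 953, 261, 3144, 1893, 1236 and 864 PEP-619WW barcodes, respectively. In run 2 only the Lyz2 gate (6488 and 4919) and the neutrophil gate (590 and 1071) held at least 50 barcodes of each genotype.

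The gates were checked against 5 markers each. The CD8 T and CD4 T lists shared Cd3d, Cd3g and Trac, so this check cannot tell CD4 T from CD8 T barcodes. In run 1, 97.1 to 97.5% of CD8 T barcodes, 88.4 to 95% of CD4 T barcodes and 88.6 to 90.0% of B barcodes held at least 3 of their markers. This share was 54.0 to 62.3% in the plasma gate, 42.6 to 58.8% in the Lyz2 gate for macrophage or monocyte markers, and 57.3 to 73.4% in the neutrophil gate. In run 2 it was 82.2 to 85.9% in the Lyz2 gate and only 20.6 to 21.7% in the neutrophil gate, which is therefore named by its rule alone there. Gates also overlapped: 60.2% of PEP-WT and 43.9% of PEP-619WW plasma barcodes in run 1 passed the B gate, and 68.7% and 65.0% of neutrophil barcodes passed the Lyz2 gate.

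OXPHOS couples the oxidation of NADH and succinate to the pumping of protons across the inner mitochondrial membrane, and ATP synthase (complex V) uses the resulting gradient to make ATP. Complexes I, III, IV and V are mosaics of subunits encoded in the nucleus and in the mitochondrial genome, whereas complex II is wholly nuclear. Mitochondrial genes are transcribed as long polycistronic RNAs that are cut into mRNAs. Their mRNA levels can therefore be set apart from those of the nuclear subunits. T cells that are activated change their reliance on glycolysis and OXPHOS, and mature neutrophils are known for few mitochondria.

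The overlap of neighbouring mitochondrial genes is shown first. mt-Atp8 lies on the forward strand of the mitochondrial genome from 7766 to 7969 and mt-Atp6 from 7927 to 8607 (GRCm38). They share 43 bases, which are in capitals in the mt-Atp8 transcript (GENCODE release M21, 204 bases, 5′ to 3′).
mt-Atp8: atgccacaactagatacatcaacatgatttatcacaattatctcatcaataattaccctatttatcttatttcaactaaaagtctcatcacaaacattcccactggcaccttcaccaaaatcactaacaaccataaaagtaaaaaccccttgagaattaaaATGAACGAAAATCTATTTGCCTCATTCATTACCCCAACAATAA
mt-Nd4l and mt-Nd4 likewise share 7 bases. The transcript read that the study's methods give for its libraries is longer than both of these shared stretches. A read of full length therefore cannot lie only in them. How reads that reach into both genes of a pair were counted was not examined, and the reads of run 1 are not described. mt-Nd6 also overlaps mt-Nd5, on the other strand, from 13552 to 13565. It had the fewest UMIs of the 13 mt- members in run 1, 1640 in PEP-WT and 1547 in PEP-619WW.

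The nuclear members were spread over many chromosomes and their promoters were compared by 3 letter patterns known from OXPHOS genes: GCGC followed by any base and TGCGC (NRF1), CCGGAAG (GABP, an ETS factor) and AAGATGGCG (YY1), each searched on both strands of the 300 bases from 250 before to 50 after the RefSeq start site (GRCm38.p6). Of 98 nuclear members, 81 matched a promoter. The NRF1 pattern was found in 25.9% of these and in 5.19% of all 27025 genes, the GABP pattern in 25.9% against 9.93%, and the YY1 pattern in 9.88% against 1.64%. The NRF1 pattern can match both strands at 1 position, which was then counted once. The promoters below belong to Ndufa6 and Ndufa1, which were higher in PEP-619WW in all 6 gates of run 1. The others belong to Cox6a1, Cox6b1 and Cox6b2, whose isoforms differed between cell types. Matches are in capitals, and each sequence runs 5′ to 3′ on the gene's strand, which is the reverse strand for all 5.
Ndufa6 (chr15:82354242-82354541, 1 NRF1 match): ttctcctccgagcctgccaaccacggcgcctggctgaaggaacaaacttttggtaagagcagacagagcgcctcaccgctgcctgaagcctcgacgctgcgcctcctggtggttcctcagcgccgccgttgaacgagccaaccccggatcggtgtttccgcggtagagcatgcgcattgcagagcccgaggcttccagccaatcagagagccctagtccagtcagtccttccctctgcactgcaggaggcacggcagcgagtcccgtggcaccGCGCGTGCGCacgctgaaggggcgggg
Ndufa1 (chrX:37191189-37191488, 0 matches): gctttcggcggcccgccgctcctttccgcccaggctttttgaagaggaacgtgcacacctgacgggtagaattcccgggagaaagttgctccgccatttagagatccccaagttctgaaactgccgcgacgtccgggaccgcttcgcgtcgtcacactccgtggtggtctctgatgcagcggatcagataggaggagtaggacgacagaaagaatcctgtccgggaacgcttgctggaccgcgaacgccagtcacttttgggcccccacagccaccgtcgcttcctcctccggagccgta
Cox6a1 (chr5:115348909-115349208, 2 NRF1 matches and 1 GABP match): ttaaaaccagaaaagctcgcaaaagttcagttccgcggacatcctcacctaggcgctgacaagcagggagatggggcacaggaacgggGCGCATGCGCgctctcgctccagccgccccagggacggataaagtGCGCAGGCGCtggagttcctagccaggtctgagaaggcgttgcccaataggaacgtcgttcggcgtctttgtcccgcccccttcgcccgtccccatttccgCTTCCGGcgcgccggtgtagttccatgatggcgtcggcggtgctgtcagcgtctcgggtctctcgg
Cox6b1 (chr7:30626065-30626364, 1 GABP match): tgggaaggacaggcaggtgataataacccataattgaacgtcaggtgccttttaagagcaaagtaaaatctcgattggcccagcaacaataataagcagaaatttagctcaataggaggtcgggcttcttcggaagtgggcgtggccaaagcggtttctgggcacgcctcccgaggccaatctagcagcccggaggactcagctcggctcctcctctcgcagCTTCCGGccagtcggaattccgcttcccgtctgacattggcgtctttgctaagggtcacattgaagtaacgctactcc
Cox6b2 (chr7:4753045-4753344, 0 matches): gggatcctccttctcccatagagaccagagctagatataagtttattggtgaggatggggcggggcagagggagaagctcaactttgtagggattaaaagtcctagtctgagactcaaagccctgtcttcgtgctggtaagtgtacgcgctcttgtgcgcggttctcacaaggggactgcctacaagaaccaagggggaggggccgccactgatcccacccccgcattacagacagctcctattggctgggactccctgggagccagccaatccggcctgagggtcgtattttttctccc
These matches describe letters in the window and show no binding.

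The order of the cell types was not the same for the nuclear and the mt- members, mainly because of the B gate. Levels are given as counts per 1000000 UMIs of the gate (CPM). In run 1 of PEP-WT, the summed level of the nuclear members was 26028 CPM in the CD8 T gate, 25553 in CD4 T, 23575 in Lyz2, 23459 in plasma, 20760 in B and 19790 in neutrophil barcodes. The mt- members summed to 29162 in B, 25601 in CD4 T, 24596 in CD8 T, 23371 in plasma, 22524 in Lyz2 and 20633 in neutrophil barcodes. B barcodes thus held the highest mt- and the next to lowest nuclear level, and neutrophil barcodes the lowest of both. No neighbouring intervals overlapped for the mt- members. For the nuclear members the intervals of the Lyz2 and plasma gates, 23499 to 23651 and 23405 to 23514, overlapped. In barcodes that passed only 1 gate, the B gate stayed highest for the mt- members (32468), but plasma (18392) took the lowest place and the neutrophil gate was at 24665. The nuclear level of the neutrophil gate was 11432 in these barcodes, still the lowest. Depth differed between the gates, with median UMIs from 2837 in B to 9899 in plasma barcodes of PEP-WT. Among PEP-WT barcodes of 10000 or more UMIs, B stayed highest for the mt- members (24191), but plasma was lowest (21479). Their nuclear level was 26499 in B, above Lyz2 (25762) and plasma (24792), and the neutrophil gate stayed lowest (24602).

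The highest and the lowest gate of the mt- sum were also those of nearly all single mt- members, whereas the nuclear members varied more. In PEP-WT, 12 of 13 mt- members were highest in the B gate and 12 of 13 lowest in the neutrophil gate, and the counts were 12 and 12 in PEP-619WW as well. Among 11128 genes with at least 100 UMIs in both genotypes, 18.1% were highest in the B gate and 32.9% lowest in the neutrophil gate of PEP-WT. Among the nuclear members with at least 100 UMIs, 38 were highest in the CD4 T gate and 26 in the CD8 T gate of PEP-WT, and 57 were lowest in the neutrophil gate and 30 in the B gate. These were 40.9%, 28.0%, 61.3% and 32.3% of 93 nuclear members, against 29.6%, 14.7%, 32.9% and 9.41% of all genes. Exceptions included Ndufa1 and Ndufa4, which were highest in plasma barcodes, and Sdha, the catalytic flavoprotein of complex II. In PEP-WT Sdha was highest in B barcodes (83.1 CPM, and 77.4 in CD4 T) but in PEP-619WW in CD4 T barcodes (96.3, and 80.9 in B). Its B and CD4 T intervals overlapped in PEP-WT (80.2 to 86.2 and 68.2 to 87.5) but not in PEP-619WW (77.1 to 84.8 and 85.2 to 109). Of 106 members with enough UMIs in both genotypes, 60 (56.6%) had the same highest gate and 86 (81.1%) the same lowest gate in PEP-WT and PEP-619WW, against 65.2% and 64.4% of all genes.

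**Figure D1:**
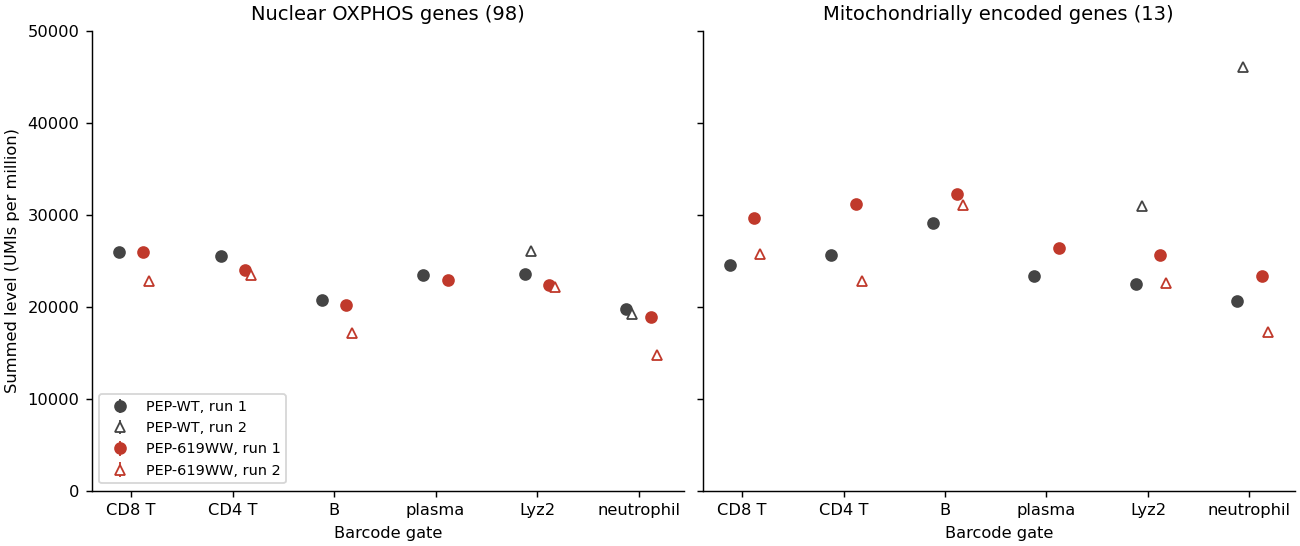
Summed level of the 98 nuclear (left) and 13 mitochondrially encoded (right) OXPHOS genes in CPM (vertical axis) for each gate (horizontal axis). Dark points are PEP-WT, red points PEP-619WW, filled circles run 1 and open triangles run 2, with 95% counting intervals mostly smaller than the symbols and gates under 50 barcodes left out. In run 1 the red circles lie above the dark ones for the mt- genes in all 6 gates.

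Between the genotypes, the summed mt- members were higher in PEP-619WW in all 6 gates of run 1, while the summed nuclear members were near 1:1. In the Lyz2 and neutrophil gates of run 2, the libraries that the study's methods describe, the mt- sum was lower in PEP-619WW, as given further on. In CD8 T barcodes the mt- level was 24596 CPM in PEP-WT and 29678 in PEP-619WW, a log2 ratio of 0.27 (0.26 to 0.28). In CD4 T barcodes it was 25601 and 31209, a log2 ratio of 0.29 (0.27 to 0.30). The B gate gave 29162 and 32269 (log2 ratio 0.15), the plasma gate 23371 and 26378 (0.17), the Lyz2 gate 22524 and 25626 (0.19) and the neutrophil gate 20633 and 23374 (0.18). The excess was thus 1.11-fold to 1.22-fold. Of the 13 single mt- members, 13 were above 0 in the CD8 T gate, 12 in CD4 T and 10 in each of the other gates. Of all genes, 35.7% to 51.9% were above 0 over the 6 gates. The order of the gates depended on the setting: the T cell gates were highest as given here, the Lyz2 gate (0.31) in barcodes of 1 gate only.

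The nuclear members gave log2 ratios of -0.0055 in CD8 T, -0.089 in CD4 T, -0.039 in B, -0.036 in plasma, -0.075 in Lyz2 and -0.070 in neutrophil barcodes. These small values depended on the scaling. Leaving immunoglobulin, hemoglobin and mt- UMIs out of the total put CD8 T (0.039), B (0.018) and plasma (0.021) above 0, and scaling by the median of gene ratios put neutrophil (0.035) above 0. With each barcode thinned to 1000 UMIs the neutrophil value was 0.23. The number of mt- UMIs per nuclear UMI, which needs no total, was higher in PEP-619WW in every gate of run 1. It went from 0.945 to 1.14 in CD8 T, from 1.00 to 1.30 in CD4 T and from 1.40 to 1.60 in B barcodes. It was 0.996 and 1.15 in plasma, 0.955 and 1.15 in Lyz2 and 1.04 and 1.24 in neutrophil barcodes. In run 2 it was lower in PEP-619WW, at 1.19 and 1.02 in Lyz2 and 2.40 and 1.16 in neutrophil barcodes.

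Among barcodes that passed only 1 gate, the mt- excess in run 1 kept its direction in 5 gates and turned in the neutrophil gate. There the mt- level was 24665 in 213 PEP-WT and 19237 in 210 PEP-619WW barcodes (log2 ratio -0.36), and the nuclear level was 11432 and 15122 (0.40). The mt- excess of the neutrophil gate was thus not present without the barcodes that also passed another gate, by number mostly the Lyz2 gate. Levels of those barcodes were not computed apart. The neutrophil barcodes of 1 gate were also shallower, with medians of 1584 and 1690.5 UMIs against 3482 and 3664 in the whole gate, and the part of depth was not tested. In the other 5 gates the mt- log2 ratio of barcodes that passed only 1 gate lay between 0.14 and 0.31.

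Other quantities moved with the genotype in the same gates. Hemoglobin was lower in PEP-619WW (1472 and 309 CPM in CD8 T, 3222 and 439 in B barcodes) and immunoglobulin was higher (46142 and 70653 in CD8 T, 57643 and 92181 in B barcodes). The median depth was 6038 and 8660 UMIs in CD8 T and 4935 and 6963 in CD4 T barcodes. Within bins of depth, the mt- ratio of run 1 was above 0 in 19 of 22 bins of gate and depth, from -0.16 to 0.39, and the nuclear ratio in 6 of 22, from -0.31 to 0.80. The highest nuclear value came from neutrophil barcodes under 2500 UMIs, at 9125 and 15846 CPM. Barcodes with at least 10% of UMIs from mt- genes made up 0 to 1.36% of each gate. The part of hemoglobin, immunoglobulin and depth in the mt- difference was not tested, and library and genotype cannot be told apart.

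**Figure D2:**
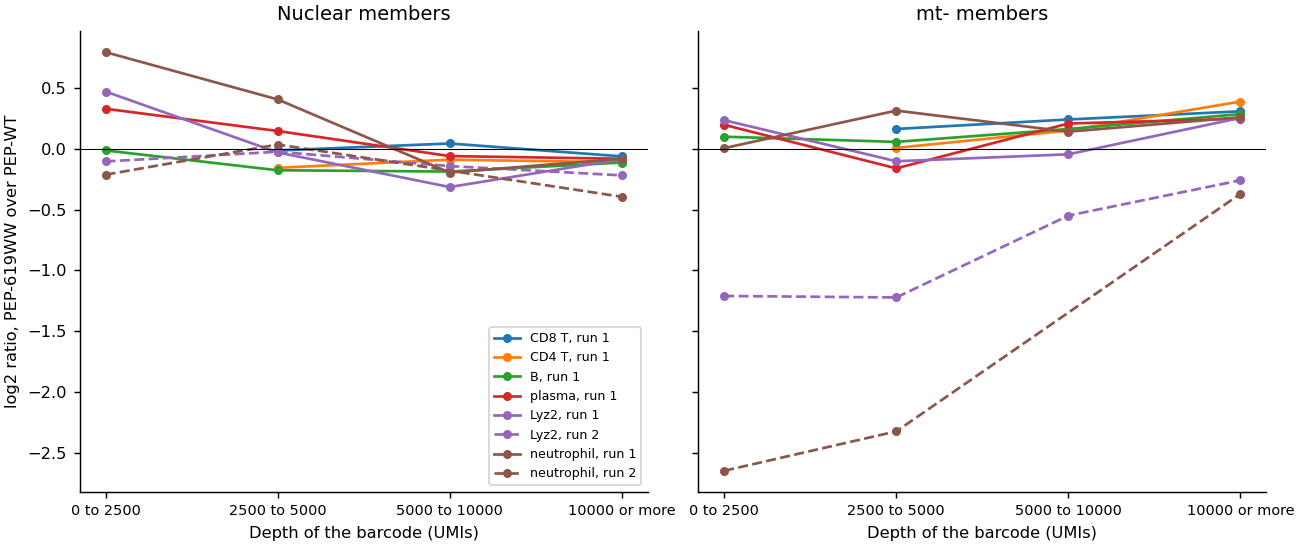
log2 ratio of PEP-619WW over PEP-WT (vertical axis) for the nuclear (left) and mt- members (right) within bins of UMIs per barcode (horizontal axis), 1 color per gate, solid lines for run 1 and dashed lines for run 2. Only bins with at least 50 barcodes of each genotype are drawn. The solid lines lie above 0 for the mt- members in 19 of 22 bins, and the dashed lines lie below 0 in 7 of 7.

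By complex, the mt- excess of run 1 was shared by complexes I, IV and V but not by the single gene of complex III. The mt- genes of complex V (mt-Atp6 and mt-Atp8) gave log2 ratios of 0.21 to 0.32 over the 6 gates, those of complex IV 0.15 to 0.32 and those of complex I 0.12 to 0.30. mt-Cytb, the cytochrome b of complex III, gave -0.10 to 0.036. Among nuclear groups of run 1, the 12 assembly factors had the lowest ratios, from -0.11 in CD8 T to -0.32 in neutrophil barcodes, and these stayed below 0 under both other scalings. Complex V, the ATP synthase, gave -0.028 in CD8 T to -0.14 in CD4 T barcodes, of which CD8 T turned to 0.017 without immunoglobulin, hemoglobin and mt- UMIs in the total. Complexes I to IV lay between -0.12 and 0.036 in run 1, and in several gates their sign changed with the scaling. In run 2 the assembly factors were not the lowest nuclear group. They gave -0.19 in Lyz2 and -0.27 in neutrophil barcodes, against -0.31 and -0.46 for the nuclear genes of complex I.

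Single mt- members differed in size. mt-Nd1, a core subunit of complex I, was at 816 CPM in PEP-WT and 1183 in PEP-619WW CD8 T barcodes, a log2 ratio of 0.53 (0.50 to 0.57). The same gene was at 881 and 1162 in CD4 T, 1011 and 1308 in B, 778 and 1007 in plasma, 751 and 947 in Lyz2 and 679 and 830 in neutrophil barcodes. PEP-619WW was higher in each of these 6 gates, with log2 ratios of 0.29 to 0.53.

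mt-Co1, the catalytic subunit of cytochrome c oxidase, was at 4656 and 5619 in CD8 T (log2 ratio 0.27) and at 4667 and 6140 in CD4 T barcodes (0.40). In the other 4 gates its log2 ratio was 0.21 to 0.24. mt-Atp6, which forms part of the proton channel of ATP synthase, was at 6141 and 7681 in CD8 T barcodes (0.32) and at 7201 and 8350 in B barcodes (0.21). mt-Cytb stood against these genes, with 1781 and 1826 in CD8 T barcodes (0.036), 2277 and 2148 in B barcodes (-0.084) and 1866 and 1738 in plasma barcodes (-0.10).

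As a share of mt- UMIs, mt-Cytb went from 7.24% to 6.15% in CD8 T, from 7.81% to 6.66% in B and from 7.98% to 6.59% in plasma barcodes, and was lower in PEP-619WW in all 6 gates. mt-Nd1 went from 3.32% to 3.98% in CD8 T and from 3.47% to 4.05% in B barcodes. The counting intervals of these pairs did not overlap. mt-Nd2 and mt-Nd4l were the other genes not above 0 throughout, with log2 ratios of -0.036 to 0.12 and -0.11 to 0.072. The remaining 10 mt- members were above 0 in all 6 gates, as were 14.3% of 6103 genes with enough UMIs in each gate. This count was also 10 under the median of gene ratios and became 11, with mt-Nd2, when immunoglobulin, hemoglobin and mt- UMIs were left out of the total.

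**Figure D3:**
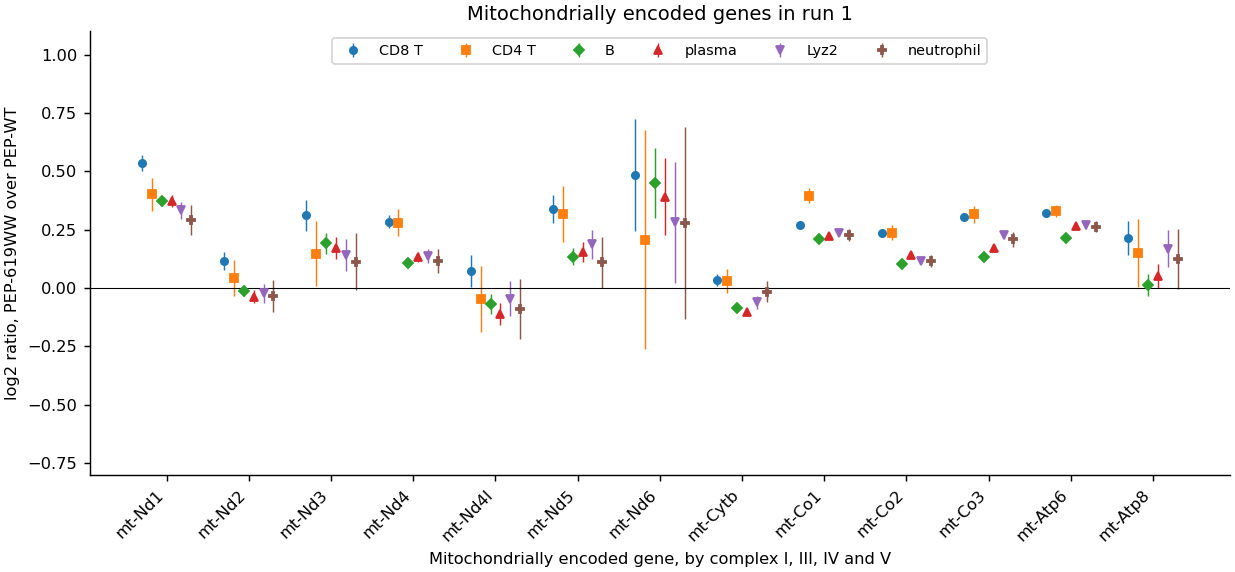
log2 ratio of PEP-619WW over PEP-WT (vertical axis) for the 13 mitochondrially encoded genes (horizontal axis) in run 1, with 1 symbol per gate and 95% counting intervals. mt-Nd1 lies between 0.29 and 0.53, while mt-Nd2, mt-Nd4l and mt-Cytb scatter around 0, and mt-Nd6 has wide intervals.

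A change of at least 1.5-fold in a gene with at least 100 UMIs in the gate served as a size rule. Of the nuclear members, 91 of 98 had enough UMIs in CD8 T, 85 in CD4 T, 92 in B, 93 in plasma, 91 in Lyz2 and 85 in neutrophil barcodes. None of them was past 1.5-fold in the CD8 T, Lyz2 and neutrophil gates, where the share of all genes was 2.81%, 2.73% and 2.96% higher and 3.28%, 3.88% and 7.70% lower in PEP-619WW. In the CD4 T gate 1 member was lower (all genes 5.55% lower, 4.57% higher). In the B gate 1 member was higher (all genes 4.45% higher, 2.98% lower) and in the plasma gate 2 (all genes 3.43% higher, 3.44% lower). No mt- member passed the size rule in any gate of run 1. Here and below, the shares of all genes were not matched to the members for UMI count.

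The genes past this size were counted from few UMIs. Ndufa9, an accessory subunit of complex I, was at 69.5 CPM in PEP-WT and 43.7 in PEP-619WW CD4 T barcodes (230 and 122 UMIs, log2 ratio -0.67). It was below 0 in all 6 gates of run 1, with -0.060 in CD8 T as the smallest difference, and had the lowest ratio of the nuclear members in neutrophil barcodes, at 47.7 and 33.6 CPM (-0.50). Cox4i2, the alternative form of the complex IV subunit 4, was at 1.97 and 4.27 in B barcodes (70 and 92 UMIs, log2 ratio 1.12) and at 4.90 and 8.78 in plasma barcodes (148 and 243 UMIs, 0.84). Cox6b2 was at 2.41 and 3.94 in plasma barcodes (73 and 109 UMIs, 0.71).

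Ndufa1, an X-linked accessory subunit of the membrane arm of complex I, was among the 3 highest ratios in each gate of run 1. It was at 266 CPM in PEP-WT and 362 in PEP-619WW CD8 T barcodes, a log2 ratio of 0.45 (0.39 to 0.51). It was at 235 and 333 in CD4 T, 195 and 278 in B, 345 and 459 in plasma, 223 and 312 in Lyz2 and 178 and 249 in neutrophil barcodes. PEP-619WW was higher in all 6, with log2 ratios of 0.41 to 0.51. Of 6103 genes with enough UMIs in all 6 gates, 32 (0.524%) were at or above 0.41 in each, Ndufa1 included. This cut is the lowest ratio of Ndufa1 itself, and the gene was named for its ratios in these data. The share is thus a description and no test. In run 2 Ndufa1 was at 211 and 185 in Lyz2 barcodes (-0.19) and at 173 and 140 in neutrophil barcodes (-0.31), so the direction was opposite there.

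Ndufa6, another accessory subunit of complex I, lay above 0 in both runs. Its log2 ratio was 0.097 to 0.29 over the 6 gates of run 1, with 147 and 175 CPM in CD8 T and 141 and 162 in B barcodes. In run 2 it was at 178 and 255 in Lyz2 barcodes (0.52) and at 169 and 187 in neutrophil barcodes (0.15). The interval of the latter (-0.039 to 0.33) held 0, and the median of all genes in that gate was higher, at 0.25. The interval of the CD4 T gate of run 1 (-0.089 to 0.28) held 0 too. Cox4i1, the common form of complex IV subunit 4, was at 724 and 776 in CD8 T and 620 and 663 in B barcodes, with log2 ratios of 0.051 to 0.11 in run 1. In run 2 it was lower in PEP-619WW, at 1173 and 940 in Lyz2 barcodes (-0.32).

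At the low end were Sdhaf4 and Sdhaf2, assembly factors of complex II, Ndufab1, the mitochondrial acyl carrier protein, and Uqcrc2, a core protein of complex III. Sdhaf4 was at 56.0 and 44.9 in CD8 T (-0.32), 55.9 and 40.8 in B (-0.45) and 49.5 and 35.8 in Lyz2 barcodes (-0.46). Ndufab1 was at 239 and 203 in CD8 T (-0.24) and at 273 and 188 in CD4 T barcodes (-0.54). In run 2 both were lower again: Ndufab1 was at 319 and 144 in Lyz2 barcodes (-1.15), and Sdhaf4 at 52.3 and 34.0 (-0.62). Uqcrc2 gave -0.39 to -0.30 over the 6 gates of run 1, and Sdhaf2 -0.46 to -0.067, but Sdhaf2 gave 0.16 and 0.27 in run 2. Uqcrc2 was at 79.6 and 81.6 in Lyz2 barcodes of run 2 (0.036) and at 68.1 and 55.9 in neutrophil barcodes (-0.28). Further assembly factors were among the 3 lowest ratios of a gate of run 1: Ndufaf6 in B (-0.52) and plasma (-0.46), Ndufaf5 in plasma (-0.52), and Sdhaf3 (-0.56) and Ndufaf7 (-0.44) in Lyz2 barcodes. Atp5f1, a stalk subunit of ATP synthase, was among the 3 lowest in CD4 T barcodes of run 1, at -0.40. Ndufaf7 had the opposite direction in Lyz2 barcodes of run 2, at 10.6 and 13.2 (0.32), among the 3 highest ratios there. Ndufaf6 (-0.49), Ndufaf5 (-0.25) and Sdhaf3 (-0.56) were below 0 in the same barcodes.

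Other members were chosen for their role. Atp5b, the catalytic beta subunit of ATP synthase, was lower in PEP-619WW in all gates. It was at 470 and 439 in CD8 T (-0.098), at 504 and 402 in CD4 T (-0.33) and at 404 and 363 in B barcodes (-0.15). Ndufa4, which is counted here with complex I by its symbol but acts with complex IV, was at 702 and 619 in CD8 T (-0.18) and at 560 and 501 in B barcodes (-0.16). Sdhb, the iron-sulfur subunit of complex II, gave -0.29 to -0.12. Atp5a1, the alpha subunit of ATP synthase, gave -0.17 to -0.00011. Uqcrh, Cox6c and Ndufb11 stayed within -0.066 to 0.13 in run 1.

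Across the 85 nuclear members with enough UMIs in all 6 gates of run 1, 39 were below 0 and 8 above 0 in every gate, against 27.8% below and 14.3% above among 6103 genes. The 8 were Atp5l, Cox4i1, Cox7c, Ndufa1, Ndufa3, Ndufa6, Ndufv3 and Uqcrq. The balance depended on the scaling, with 26 below and 12 above by the median of gene ratios, and 27 and 16 without immunoglobulin, hemoglobin and mt- UMIs in the total. All genes gave 23.6% below and 19.0% above by the former and 21.8% and 18.6% by the latter. The median ratio of all genes was itself -0.072 in the Lyz2 gate and -0.11 in the neutrophil gate. The 6103 genes were not matched to the members for UMI count.

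**Figure D4:**
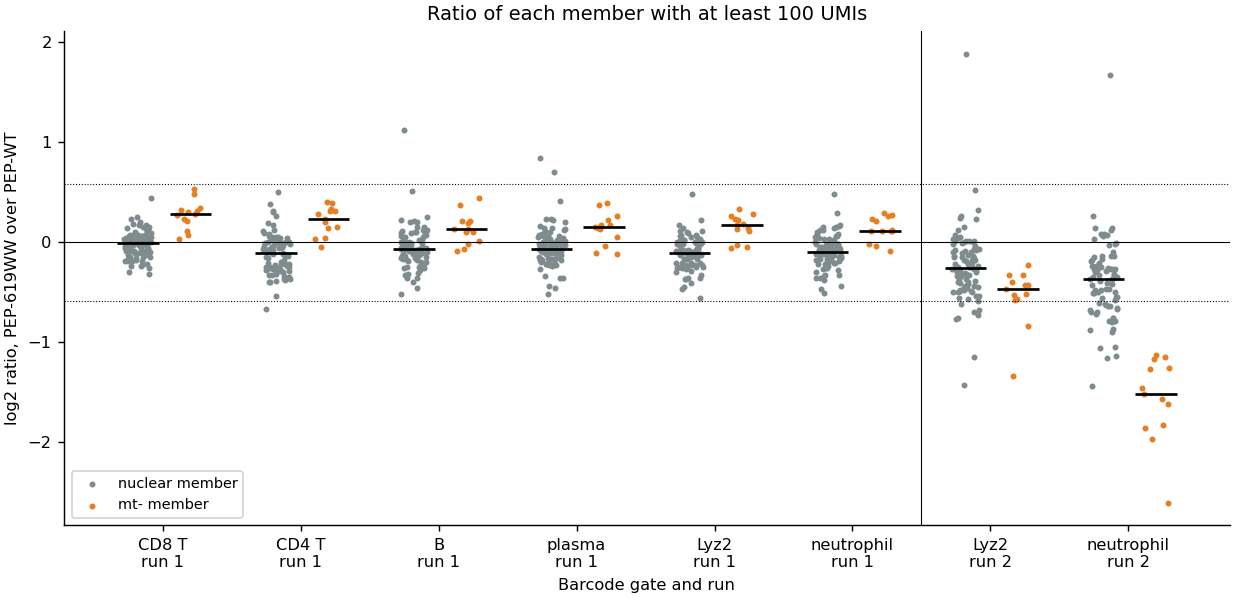
log2 ratio of PEP-619WW over PEP-WT (vertical axis) for each OXPHOS gene with at least 100 UMIs, by gate and run (horizontal axis), nuclear members in gray and mt- members in orange. Black bars mark medians and dotted lines 1.5-fold. In run 1 the orange medians lie between 0.12 and 0.28 and the gray ones between -0.10 and -0.0083, and in run 2 both lie below 0.

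In run 2 the summed OXPHOS genes were lower in PEP-619WW. In Lyz2 barcodes the nuclear level was 26063 and 22209 CPM (log2 ratio -0.23) and the mt- level 30973 and 22605 (-0.45). In neutrophil barcodes the nuclear level was 19252 and 14823 (-0.38) and the mt- level 46125 and 17238 (-1.42). All 13 mt- members were below 0 in both gates, as were 77 of 95 nuclear members in the Lyz2 and 73 of 83 in the neutrophil gate. Of all genes, 58.3% were above 0 in the Lyz2 and 67.1% in the neutrophil gate. The mt- level of PEP-WT neutrophil barcodes was the highest of any gate compared.

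The mt- values of run 2 moved with a set of PEP-WT barcodes rich in mt- UMIs. Barcodes with at least 10% mt- UMIs made up 8.49% of PEP-WT and 0.874% of PEP-619WW Lyz2 barcodes, and 18.5% and 0.654% of neutrophil barcodes. Without them the mt- log2 ratio was -0.30 in the Lyz2 gate and -0.91 in the neutrophil gate. The nuclear log2 ratio was then further below 0 than with all barcodes, at -0.25 and -0.46. Within bins of depth the mt- ratio of the Lyz2 gate went from -1.21 under 2500 UMIs to -0.26 at 10000 or more, and that of the neutrophil gate from -2.65 to -0.37. The melanocyte genes summed to 151 and 18.3 CPM in the Lyz2 gate and to 76.2 and 18.8 in the neutrophil gate, and their part in these differences was not tested.

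Past the 1.5-fold size in run 2 were 9 nuclear members lower and 1 higher in the Lyz2 gate, where 14.0% of all genes were lower and 22.4% higher. In the neutrophil gate 24 nuclear members were lower and 1 higher, against 8.98% of all genes lower and 27.5% higher. The higher members were Cox6b2 in the Lyz2 gate (1.53 and 5.66 CPM, 1.89) and Cox6a2 in the neutrophil gate (7.67 and 24.5, 1.67). Of the mt- members, 2 of 13 in the Lyz2 gate and 13 of 13 in the neutrophil gate were lower. The lowest was mt-Atp8, which shares bases with mt-Atp6, at 135 and 53.5 CPM in Lyz2 (-1.34) and 271 and 44.6 in neutrophil barcodes (-2.61). mt-Nd1 was at 1647 and 1317 in Lyz2 (-0.32) and at 2247 and 940 in neutrophil barcodes (-1.26).

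Several complex IV subunits exist as a common form and a form known from muscle, testis or lung. Here the rare forms Cox6a2 and Cox6b2 were higher in small sets of barcodes, without being limited to them. The common forms were found throughout the gates of at least 50 barcodes, with ranges given here over both runs. Cox4i1 was at 620 to 1173, Cox6a1 at 193 to 358 and Cox6b1 at 386 to 616 CPM. Cox7a2 was at 259 to 494, its relative Cox7a2l at 166 to 370 and Cox8a at 806 to 1221 CPM. Cox4i2, Cox6a2 and Cox6b2 were the 3 members with the widest range over the gates of PEP-WT in run 1, but all from few UMIs.

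Cox6a2, the form of subunit 6a known from heart and skeletal muscle, was at 1.46 to 4.36 CPM in the 6 gates of PEP-WT in run 1. In run 2 of PEP-619WW it reached 982 in the plasma gate, where 8 of 15 barcodes held a UMI. The gene was then split by Siglech, a sialic acid binding lectin typical of plasmacytoid dendritic cells, a choice made after these values were seen. In barcodes with at least 3 Siglech UMIs, Cox6a2 was at 230 (191 to 275) in PEP-WT and 309 (229 to 409) in PEP-619WW of run 1, from 41 and 16 barcodes. In run 2 it was at 1308 (882 to 1867) and 1033 (977 to 1093), from 5 and 226 barcodes. Without any Siglech UMI it was at 0.829 and 1.45 in run 1 and at 5.48 and 1.17 in run 2.

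The share of barcodes with a Cox6a2 UMI was 75 to 80.5% with at least 3 Siglech UMIs and 0.285 to 3.26% without, at medians of 4867 to 9628 and 2822.5 to 4833.5 UMIs. The 4 tables thus gave the same order. Barcodes without Siglech still held 64 of 215 Cox6a2 UMIs in PEP-WT and 82 of 136 in PEP-619WW of run 1. In run 2 they held 386 of 416 and 63 of 1347. The genotypes' intervals overlapped in both runs with at least 3 Siglech UMIs but not without Siglech, where PEP-619WW was higher in run 1 and lower in run 2. All 8 plasma barcodes with Cox6a2 in run 2 of PEP-619WW were among the 9 with a Siglech UMI, and the 6 without had 0 Cox6a2 UMIs, with an upper bound of 88.7 CPM.

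Cox6b2, the form of subunit 6b known from testis, was at 41.9 CPM in PEP-WT and 44.5 in PEP-619WW barcodes of no gate in run 1, and at 1.21 to 7.43 in the gates. It was split, after these values were seen, by Rhag, a membrane protein of erythroid cells. In barcodes with at least 3 Rhag UMIs (98 and 54 barcodes), Cox6b2 was at 142 (127 to 157) in PEP-WT and 136 (121 to 152) in PEP-619WW, and 89.8% and 92.6% of them held a UMI. In barcodes without Rhag it was at 4.11 and 2.5, and 1.68% and 1.33% held a UMI. The depth of these sets differed widely, with medians of 26411.5 and 37396.5 against 2794.5 and 3272 UMIs, and the levels in CPM are relative to the total. The intervals of the genotypes overlapped in the Rhag barcodes. Run 2 held no barcode with 3 Rhag UMIs, and its Cox6b2 was at 1.67 and 5.53 over all barcodes. Run 2 was also split by Cd209a, a lectin of dendritic cells, again after values were seen. With at least 3 Cd209a UMIs, Cox6b2 was at 15.3 (5.60 to 33.2) in 43 PEP-WT and 21.2 (17.0 to 26.1) in 435 PEP-619WW barcodes, and without Cd209a it was at 1.57 and 4.15. Barcodes without Cd209a held 109 of 118 Cox6b2 UMIs of run 2 in PEP-WT and 205 of 307 in PEP-619WW. In run 1 only 2 barcodes per genotype had at least 3 Cd209a UMIs, and these held 0 Cox6b2 UMIs.

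**Figure D5:**
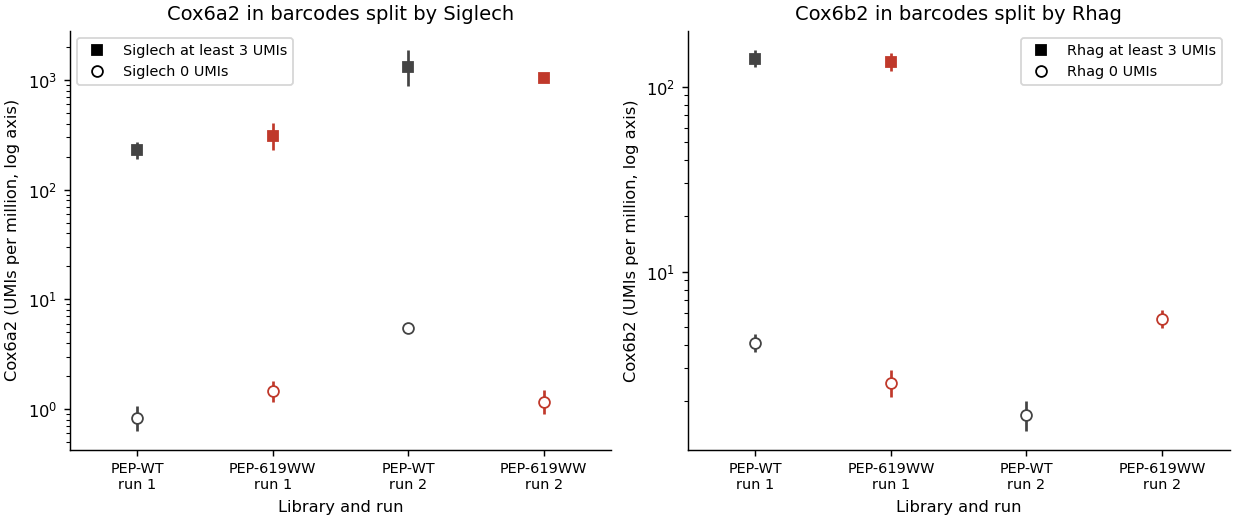
Level of Cox6a2 (left) and Cox6b2 (right) in CPM on log axes, for each genotype and run (horizontal axis), in barcodes with at least 3 UMIs (filled squares) or 0 UMIs (open circles) of Siglech or Rhag, with 95% counting intervals, PEP-WT in dark gray and PEP-619WW in red. In every library with such barcodes the squares lie far above the circles, at 230 to 1308 for Cox6a2 and 136 to 142 for Cox6b2.

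Cox7a1, the muscle form of subunit 7a, was at 0.279 to 1.21 in the 6 gates of run 1 and at 14.4 in PEP-WT and 9.92 in PEP-619WW Lyz2 barcodes of run 2. Cox4i2 was at 10.2 and 3.79 in the same Lyz2 barcodes (log2 ratio -1.43), opposite to its direction in the B and plasma gates of run 1. In the Lyz2 gate of run 1 it was at 5.13 and 5.23, a log2 ratio of 0.027 (-0.46 to 0.51). Ndufa4l2, a hypoxia-induced relative of Ndufa4, reached at most 2.03 CPM in any gate of at least 50 barcodes.

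Genes that serve OXPHOS outside the rule were counted from lists chosen for this purpose. Among all genes with enough UMIs, 35.7 to 51.9% were above 0 in a gate of run 1, and 2.98 to 7.70% were past 1.5-fold lower. Cytochrome c (Cycs) and cytochrome c1 (Cyc1) were below 0 in all 6 gates of run 1: Cycs was at 268 and 260 in CD8 T (-0.042) and 246 and 201 in CD4 T barcodes (-0.29), and Cyc1 at 128 and 107 (-0.26) and 141 and 96.7 (-0.54). Of 29 further assembly factors, 19 to 29 had enough UMIs per gate and 3 to 8 of these were above 0 in run 1, with Coa7 in CD4 T, Bcs1l in Lyz2 and Cox10 in neutrophil barcodes past 1.5-fold lower. Of 11 genes of mitochondrial transcription and RNA handling, 5 to 11 had enough UMIs per gate of run 1 and 0 to 4 were above 0. Polrmt and Tefm in Lyz2 barcodes, Tefm in B and Lrpprc in neutrophil barcodes were past 1.5-fold lower. No gene of these 3 lists was past 1.5-fold higher in run 1. In run 2, 6 of 29 assembly factors in the Lyz2 and 5 of 12 in the neutrophil gate were above 0. Genes of transcription and RNA handling gave 6 of 11 and 1 of 2 (all genes 58.3% and 67.1%). Ttc19 in Lyz2 and Higd2a in neutrophil barcodes were past 1.5-fold higher (all genes 22.4% and 27.5%). Nubpl in Lyz2 and Coa3, Cyc1 and Slirp in neutrophil barcodes were past 1.5-fold lower (all genes 14.0% and 8.98%).

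Of 7 regulators of mitochondrial gene expression, 5 to 6 had enough UMIs per gate of run 1. None of these was past 1.5-fold there except Esrra in CD4 T barcodes (66 and 35 UMIs, log2 ratio -0.67). Nrf1 was at 33.3 and 32.4 in CD8 T and 30.4 and 29.5 in B barcodes. In Lyz2 barcodes of run 2, Ppargc1a was at 4.64 and 1.31 (-1.82), past 1.5-fold lower as were 14.0% of all genes, and Nrf1 at 18.6 and 26.5 (0.51). In neutrophil barcodes of run 2, Gabpa was at 20.1 and 30.9 (0.62) and Nrf1 at 22.0 and 33.2 (0.59), past 1.5-fold higher as were 27.5% of all genes. The regulators above 0 numbered 5 of 7 in the Lyz2 gate (median 0.30) and 5 of 5 in the neutrophil gate (median 0.51) of run 2, where 58.3% and 67.1% of all genes were above 0. Of 12 genes of the citrate cycle, 1 to 4 were above 0 per gate in run 1, and Fh1 in CD4 T and Idh3a in neutrophil barcodes were past 1.5-fold lower. Of 7 genes of transport across the mitochondrial membranes, 1 or 2 were above 0 per gate of run 1. Slc25a4, an ADP/ATP carrier, was past 1.5-fold lower there in plasma barcodes. In run 2, 5 of 12 citrate cycle genes in Lyz2 and 4 of 12 in neutrophil barcodes were above 0, and 1 of 7 transport genes in each. Ucp2 was past 1.5-fold higher in Lyz2 barcodes (all genes 22.4%). Slc25a4 and Vdac2 in both gates, and Vdac1, Idh3a and Sucla2 in neutrophil barcodes, were past 1.5-fold lower (all genes 14.0% and 8.98%).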

How the data were processed

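The study's methods describe splenocytes pooled by genotype and sorted by the authors, which was not stated for each table and which other labels contradict. The deposited tables hold UMI counts per gene and barcode made with Cell Ranger 6.0.0 on mm10, as given in the submitters' processing notes, while the study's methods name another version of it. The deposited counts were used without normalization. Gene symbols were matched for 32158 of 32285 rows. UMIs were summed per gate, scaled to 1000000 UMIs of the gate (CPM), with exact Poisson intervals. Ratios carry exact conditional binomial intervals (95%). Intervals cover counting error only. A ratio needed 50 barcodes per genotype, and single genes 100 UMIs over both genotypes. Barcodes were not filtered further and no doublet caller was run, so gates that overlap can hold doublets. No test was run, as each genotype had 1 library per run, holding 55504449 to 77916082 UMIs.

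Named genes were 4 mt- genes, isoform pairs, members chosen for their role (Atpif1 was not named by the rule and is not reported), the 3 highest and 3 lowest ratios per gate, and the 3 members with the widest range over gates. The members and lists were chosen with earlier results of these data known. Promoters came from RefSeq (GRCm38.p6) and transcripts from GENCODE. Thinning left out 978 to 1199 barcodes per table. The ratio calculation was tested on simulated counts. Scripts ran on scipy 1.17.1, numpy 2.4.6, matplotlib 3.10.9 and pandas 2.3.3 under Python 3.11.15.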

Additional observations from a re-analysis of the deposited data

Results flagged for a closer look

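The mt- members differed between the genotypes in opposite directions in the 2 runs. In the Lyz2 gate the log2 ratio of PEP-619WW over PEP-WT was 0.19 in run 1 and -0.45 in run 2, and in the neutrophil gate it was 0.18 in run 1 and -1.42 in run 2. The run 2 tables are the ones the methods of the study describe, and the origin of run 1 is not described. The difference between the runs was not tested, since each value compares 1 library with 1 library.

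Barcodes that passed none of the 6 gates entered no comparison of the summed members in the report. In run 1 these gave a log2 ratio of 0.37 (0.36 to 0.37) for the mt- members and 0.051 (0.042 to 0.060) for the nuclear members, each interval covering counting error only. These barcodes were unlike between PEP-WT and PEP-619WW, with hemoglobin at 69135 and 12604 CPM and immunoglobulin at 7173 and 24427. Of them, 25.7% and 37.0% had under 500 genes. The part of these differences in the ratios was not tested.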

How the results depend on the processing

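All values here are log2 ratios of PEP-619WW over PEP-WT. Each of the 16 ratios was recomputed under 9 or 10 alternatives. Of the recomputed values 55 stayed within the counting interval, 86 moved beyond it on the same side or from a value whose interval held 0, and 11 others changed sign. The CD8 T nuclear ratio of run 1, whose interval held 0, was above 0 in 4 settings. In run 1 the mt- ratio stayed above 0 in every gate and setting except the neutrophil gate in barcodes of 1 gate only, and in run 2 mt- and nuclear ratios stayed below 0 in every setting. The run 1 nuclear ratios of CD8 T, B, plasma, Lyz2 and neutrophil barcodes had no stable sign. With each barcode thinned to 1000 UMIs, values that moved were mt- run 1 CD4 T 0.21, B 0.13, plasma 0.096, Lyz2 0.12, and mt- run 2 Lyz2 -0.75, neutrophil -2.14, and nuclear run 1 CD8 T 0.048 (opposite sign), CD4 T -0.068, B -0.060, plasma 0.0076 (opposite sign), Lyz2 -0.027, neutrophil 0.23 (opposite sign), and nuclear run 2 Lyz2 -0.17, neutrophil -0.17. In barcodes of 1 gate only, values that moved were mt- run 1 CD4 T 0.26, B 0.14, plasma 0.26, Lyz2 0.31, neutrophil -0.36 (opposite sign), and mt- run 2 Lyz2 -0.44, neutrophil -2.47, and nuclear run 1 CD8 T 0.028 (opposite sign), B -0.14, plasma 0.018 (opposite sign), Lyz2 0.00010 (opposite sign), neutrophil 0.40 (opposite sign), and nuclear run 2 Lyz2 -0.21, neutrophil -0.046. With at least 500 genes per barcode, values that moved were mt- run 1 neutrophil 0.19, and mt- run 2 neutrophil -1.38. Without barcodes at 10% mt- UMIs or more, values that moved were mt- run 1 CD4 T 0.26, Lyz2 0.17, and mt- run 2 Lyz2 -0.30, neutrophil -0.91, and nuclear run 2 Lyz2 -0.25, neutrophil -0.46. Scaled by the median of gene ratios, values that moved were mt- run 1 B 0.13, plasma 0.18, Lyz2 0.26, neutrophil 0.29, and mt- run 2 Lyz2 -0.57, neutrophil -1.67, and nuclear run 1 B -0.052, plasma -0.029, Lyz2 -0.0038, neutrophil 0.035 (opposite sign), and nuclear run 2 Lyz2 -0.34, neutrophil -0.63. Without immunoglobulin, hemoglobin and mt- UMIs in the total, values that moved were mt- run 1 CD8 T 0.32, CD4 T 0.32, B 0.20, plasma 0.23, Lyz2 0.22, neutrophil 0.21, and mt- run 2 Lyz2 -0.47, neutrophil -1.46, and nuclear run 1 CD8 T 0.039 (opposite sign), CD4 T -0.059, B 0.018 (opposite sign), plasma 0.021 (opposite sign), Lyz2 -0.037, neutrophil -0.035, and nuclear run 2 Lyz2 -0.24, neutrophil -0.42. As a mean over barcodes, values that moved were mt- run 1 CD8 T 0.30, CD4 T 0.22, B 0.12, plasma 0.10, Lyz2 0.12, neutrophil 0.027, and mt- run 2 Lyz2 -0.75, neutrophil -2.15, and nuclear run 1 CD8 T 0.069 (opposite sign), CD4 T -0.016, B -0.052, plasma 0.020 (opposite sign), Lyz2 -0.043, neutrophil 0.23 (opposite sign), and nuclear run 2 Lyz2 -0.18, neutrophil -0.18. With stricter gates, values that moved were mt- run 1 CD8 T 0.26, CD4 T 0.24, B 0.16, plasma 0.24, Lyz2 0.17, neutrophil 0.088, and mt- run 2 Lyz2 -0.42, neutrophil -1.51, and nuclear run 1 CD8 T -0.028, CD4 T -0.063, B -0.057, plasma -0.055, Lyz2 -0.087, neutrophil -0.13, and nuclear run 2 Lyz2 -0.22, neutrophil -0.33. With structural subunits only, values that moved were nuclear run 2 Lyz2 -0.24. Requiring 100 UMIs per member moved no value. The cause of these shifts was not tested. No paired analysis was possible because each genotype had 1 library per run. Depth bins, the scalings of the complexes and the isoform splits were chosen after seeing the data. Leaving out a replicate was not possible with 1 library.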
